A study of Ovis aries with 2 samples.

Results

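The cytosolic ribosomal protein genes were taken as every gene name in the count tables that begins with RPL or RPS and a digit, with RPLP, or as RPSA. Names of the RPS6 kinases (10 names) and of paralogues with an added L, such as RPL22L1 and RPS27L (7 names), were left out. The rule found 75 of 26814 genes, with 43 RPL and 32 RPS names. Of these, 73 had unique molecular identifiers (UMIs, 1 per captured transcript molecule), and RPL27 and RPS28 had 0 UMIs in both libraries. A count of 0 allows up to 0.0764 CPM (UMIs per 1000000 of a library or class) in the A.G.-ES library and 0.0594 CPM in the untreated library, taking 3 UMIs per library as the limit. This limit covers only UMIs counted under the name. Whether transcripts of RPL27 were left uncounted or counted under another name was not tested, so it gives no level for that gene. One of the 73, RPS19BP1, is matched by its name but encodes a protein that binds RPS19, so 72 measured members encode ribosomal proteins. A RefSeq gene table matched all 75 names and placed 4 of them, RPL10, RPL36A, RPL39 and RPS4X, on the X chromosome and the others on 23 autosomes. It lists RPS28 as a long non-coding RNA, so the 0 UMIs under that name give no level for a protein-coding RPS28 gene.

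The cells were peripheral blood mononuclear cells of sheep, taken from the interface of a HISTOPAQUE 1083 gradient and used without culture for droplet-based 3′ single-cell RNA sequencing. The A.G.-ES library came from animals with an A.G.-ES embedding at the acupuncture point ST36 on both sides, and the untreated library from animals that received nothing. The series title speaks of weaned lambs and of a suture that releases astragaloside IV and glycyrrhizic acid, plant saponins of Astragalus and liquorice. The labels give 1 library per group and state neither age, breed and sex nor the number of animals, so no difference has a replicate check, no test between the libraries was possible, and every interval below is a 95% interval for counting error only.

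A ribosome joins a small and a large subunit, and each subunit is ribosomal RNA bound by a fixed set of proteins, most of them present as a single copy. The messenger RNAs of these proteins start with a terminal oligopyrimidine (TOP) tract, through which mTOR signalling and the RNA-binding protein LARP1 control their translation and stability together. Resting lymphocytes carry much of their messenger RNA in this class, and monocytes less, so the share that ribosomal protein genes take of a cell's UMIs is a familiar descriptor of blood cell types.

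After filters and doublet removal 8737 A.G.-ES and 7565 untreated cells remained, with 39275689 and 50543124 UMIs and a median of 4100 and 5130 UMIs per cell. Of the UMIs, 2.20% in the A.G.-ES and 1.37% in the untreated library were mitochondrially encoded. The libraries also differed in 85 Y-linked genes, with 753 UMIs in the A.G.-ES and 40426 in the untreated library, and the part of this difference in any result below cannot be told apart from the treatment. Of the cell barcodes, 55 occurred in both libraries. Cells were sorted into classes by marker genes only, and independent markers followed the B, T and monocyte gates. No further genes were used to check the T-cell subsets. The summed level of 6 other B-cell genes was 1825 CPM in A.G.-ES and 2052 CPM in untreated B-gated cells, against 205 and 350 CPM in T-gated cells. T-cell genes of a check list (4 of 6 present) gave 1420 CPM in A.G.-ES and 1529 CPM in untreated T-gated cells, against 174 and 73.9 CPM in B-gated cells. Monocyte genes of a check list (5 of 6 present) gave 5641 and 5606 CPM in monocyte-gated cells, against 30.7 and 23.8 CPM in T-gated cells.

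Ribosomal protein transcripts took a large share of all UMIs, and how the libraries compared depended on the class of cell. Over all kept cells their share was 24.1% in the A.G.-ES library and 25.2% in the untreated library, a difference of −1.08 percentage points that turned to 0.366 points among cells of 4000 to 8000 UMIs. In B-gated cells the shares were nearly equal, at 27.3% in 1884 A.G.-ES cells and 27.4% in 3225 untreated cells, which differ by −0.067 percentage points, a sign that turned under several settings. In CD4 T-gated cells the share was 22.5% (22.46 to 22.53%) in 1441 A.G.-ES cells and 18.4% (18.38 to 18.49%) in 356 untreated cells. CD8/NCR1 T-gated cells, which have a UMI of CD8A, CD8B or the natural killer receptor gene NCR1, were alike, with 22.6% in 1129 A.G.-ES cells and 18.4% in 228 untreated cells. Both subsets were thus about 4 points higher in the A.G.-ES library, by 4.06 and 4.21 points.

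SOX13 T-gated cells have a UMI of RHEX or of SOX13, a transcription factor gene of gamma-delta T cells in mice. Their B-cell check genes stood at 499 CPM in the A.G.-ES and 572 CPM in the untreated library, against 143 and 208 CPM in CD4 T-gated cells. Their T-cell check genes stood at 933 and 1207 CPM, against 1581 and 1891 CPM in CD4 T-gated cells. The reason for these levels was not tested. SOX13 T-gated cells had the highest shares of any class, at 30.2% in 675 A.G.-ES and 28.6% in 903 untreated cells. Monocyte-gated cells had the lowest, at 12.9% in 267 A.G.-ES and 9.44% in 173 untreated cells, a difference of 3.46 points. Cycling B or T cells had 17.7% in 164 A.G.-ES and 18.6% in 420 untreated cells, a difference of −0.893 points that was 0.327 points with every cell given the same weight and 3.24 points among cells of 4000 to 8000 UMIs. The order of the classes from SOX13 T over B to CD4 and CD8/NCR1 T and on to monocytes was the same in both libraries.

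The whole-library difference therefore has the opposite sign to that in each T-cell subset and in monocytes. The libraries held different mixtures of cells: B-gated cells made up 21.6% of A.G.-ES and 42.6% of untreated cells, and T-gated cells 60.4% and 25.8%. With each library's class shares weighted by the untreated mixture, the A.G.-ES share was 25.3%, 0.0929 points above the untreated one. With the A.G.-ES mixture as weights it was 24.1% in the A.G.-ES and 22.3% in the untreated library, a difference of 1.83 points. Cells that met no gate were 13.2% of A.G.-ES and 23.7% of untreated cells, with shares of 24.2% and 26.3%, so the unclassified cells were a larger group in the untreated library and are not covered by the class results.

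**Figure D1:**
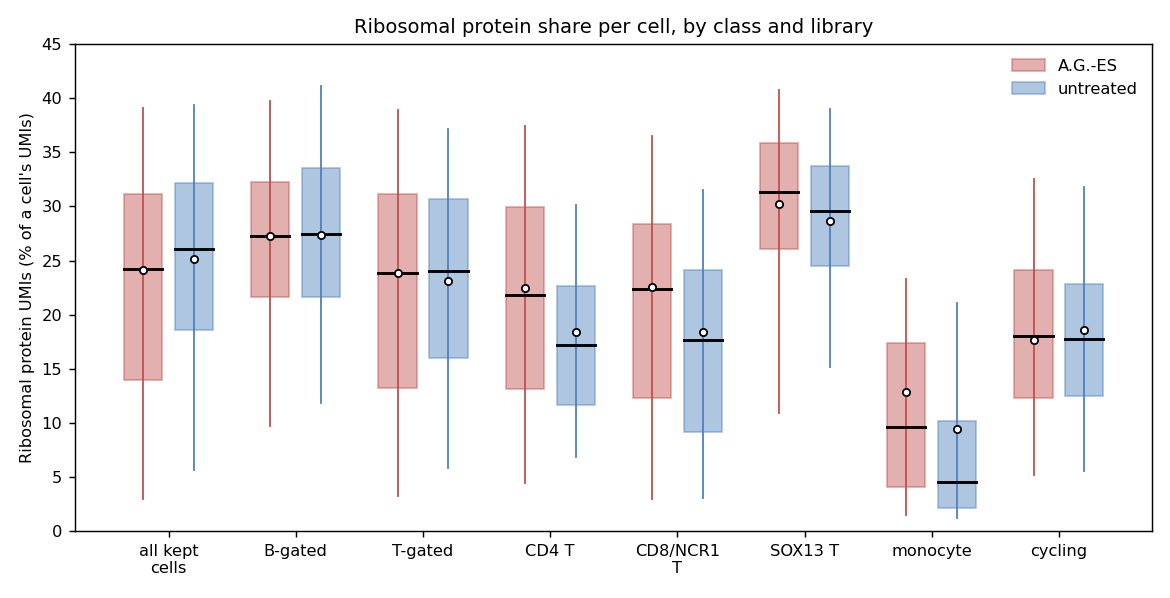
Share of each cell's UMIs that came from ribosomal protein genes (vertical axis, %), by marker-gated class, A.G.-ES cells in red and untreated cells in blue. Boxes span the quartiles over cells, black lines the median, whiskers the 5th to 95th percentile and white circles the share of summed UMIs. CD4 T, CD8/NCR1 T and monocyte medians are higher in the A.G.-ES library, while B-gated boxes nearly coincide.

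The spread between cells within a class was wide. In CD4 T-gated cells the median A.G.-ES cell had 21.8% (quartiles 13.2 and 29.9%) and the median untreated cell 17.2% (quartiles 11.7 and 22.7%). In monocyte-gated cells the median cell had 9.68% (quartiles 4.09 and 17.4%) in the A.G.-ES and 4.52% (quartiles 2.16 and 10.2%) in the untreated library. The quartile ranges of the libraries overlap in both classes.

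A subset of cells had very few ribosomal protein UMIs, taken here as a share under 10%, a limit chosen after the values were seen. Such cells were 18.2% (17.4 to 19.1%) of A.G.-ES cells and 9.97% (9.30 to 10.7%) of untreated cells. This order did not hold in every class. In CD4 T-gated cells the share of such cells was 16.6% (14.7 to 18.6%) in the A.G.-ES and 16.9% (13.1 to 21.2%) in the untreated library, and in CD8/NCR1 T-gated cells 20.8% (18.5 to 23.3%) and 28.1% (22.3 to 34.4%). In monocytes it was 51.7% (45.5 to 57.8%) in the A.G.-ES and 74.6% (67.4 to 80.9%) in the untreated library. Low-share cells were shallower, with a median of 2356 UMIs in the A.G.-ES and 2911 in the untreated library, against 4403 and 5448 UMIs in the other cells. Their median mitochondrial share was also higher, at 3.63% in the A.G.-ES and 2.47% in the untreated library, against 1.93% and 1.17% in the other cells. The part of depth or of mitochondrial RNA in these shares was not tested.

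At a matched depth of 4000 to 8000 UMIs the T-cell and monocyte differences had the same sign as over all depths. Among cells of 4000 to 8000 UMIs, CD4 T-gated cells had a median share of 25.2% in the A.G.-ES and 19.3% in the untreated library, and CD8/NCR1 T-gated cells 26.3% and 19.0%. SOX13 T-gated cells had 31.5% and 29.3% there, and monocyte-gated cells 9.03% and 6.30%. B-gated cells of that depth stayed close, with 27.3% in the A.G.-ES and 26.8% in the untreated library. The shallow end of the B-gated class differed most: the 35 A.G.-ES B-gated cells under 1000 UMIs had a median of 5.79%, and the 69 untreated ones 30.7%. Shallow T cells also ran the other way: among cells of 1000 to 2000 UMIs, 108 A.G.-ES CD8/NCR1 T-gated cells had a median of 7.56% and 32 untreated ones 9.58%, and SOX13 T-gated cells had 12.2% in the A.G.-ES and 28.0% in the untreated library. In monocytes of at least 2000 UMIs the share climbed with depth in both libraries, to 17.6% in A.G.-ES and 15.3% in untreated cells of 8000 to 16000 UMIs.

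**Figure D2:**
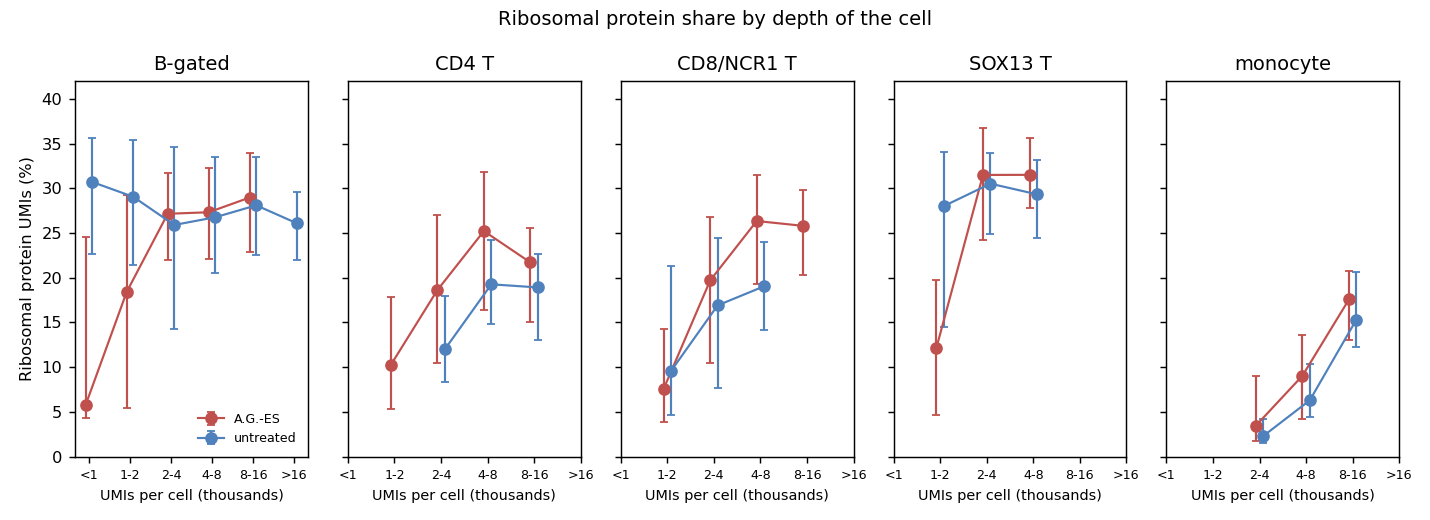
Median share of UMIs from ribosomal protein genes (vertical axis, %) by UMIs per cell (horizontal axis, in units of 1000), in 5 marker-gated classes. Points are medians over cells, bars the quartiles, A.G.-ES in red and untreated in blue, and bins with under 20 cells are left out. CD4 and CD8/NCR1 T medians are higher in the A.G.-ES library at 4000 to 8000 UMIs, and B-gated medians part only among shallow cells.

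Gene by gene, the ratios of the members lay in a narrower range than those of all genes, with a median close to that of all genes. The median log2 ratio of CPM, A.G.-ES over untreated, was −0.10 over the 73 members in all kept cells, and the median of all 10642 genes with at least 200 UMIs was −0.08. Members at least 1.5-fold higher numbered 1 and at least 1.5-fold lower 3, whereas 13.4% of all genes were that much higher and 16.4% that much lower. The quartiles of the members lay at −0.23 and 0.00, and those of all genes at −0.41 and 0.28. The members are highly counted genes, with a median interval half-width of 0.011 on the log2 scale. All genes reach down to 200 UMIs and were not matched to the members for counts, so part of their wider range can be counting error. Of the members 18 had a positive and 55 a negative log2 ratio, while 34 of the 73 lay above the median of all genes, which was itself negative. All 73 passed the minimum in every class.

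Within classes the common shift of the members took different values. It was 0.27 in CD4 T-gated and 0.28 in CD8/NCR1 T-gated cells, where the median of all genes with at least 100 UMIs was −0.16 and −0.21. TMM scaling, an alternative to dividing by all UMIs, adds 0.17 and 0.26 to every log2 ratio in these subsets and raises the member medians to 0.45 and 0.54. In these subsets 69 and 66 of the 73 members had a positive log2 ratio, and 72 in each lay above the median of all genes. Members past 1.5-fold numbered 5 higher and 0 lower in CD4 T-gated cells, where 5.56% of all genes were that much higher and 12.7% lower, and 4 higher and 0 lower in CD8/NCR1 T-gated cells, against 5.88% and 18.6% of all genes. Monocyte-gated cells had the largest shift, at 0.43 against −0.08 for all genes. There 72 of 73 log2 ratios were positive, and all 73 lay above the median of all genes. There 12 members were past 1.5-fold higher and 0 lower, against 8.2% and 12.5% of all genes, so the members' share on the higher side was above the background. With every cell given the same weight 43 members were past 1.5-fold in monocytes, and with TMM scaling 27 in monocytes, 27 in CD8/NCR1 T-gated and 13 in CD4 T-gated cells. The share of all genes past 1.5-fold was not recomputed under these settings, which also move the other genes. These counts therefore have no background beside them.

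B-gated, SOX13 T-gated and cycling cells gave smaller shifts on CPM. In B-gated cells the median was −0.05, with all genes at −0.10, so the members lie slightly below no change on CPM and 0.05 above once ratios are centred on all genes. Members past 1.5-fold were 2 higher and 1 lower there, against 10.6% and 14.9% of all genes. SOX13 T-gated cells had a median of 0.09 against −0.16 for all genes, with 3 members higher and 1 lower against 4.99% and 14.6%. Of the 73 members, 52 had a positive log2 ratio there and 67 lay above the median of all genes. In B-gated and cycling cells 47 and 29 lay above it. Cycling cells had −0.14 against −0.08, with 1 higher and 4 lower against 11.2% and 17.1%. The mixture inside the cycling class differed, since the summed B-cell markers stood at 1242 CPM in A.G.-ES and 3742 CPM in untreated cycling cells and the T-cell markers at 2102 and 722 CPM. The part of this mixture in the cycling results was not tested.

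**Figure D3:**
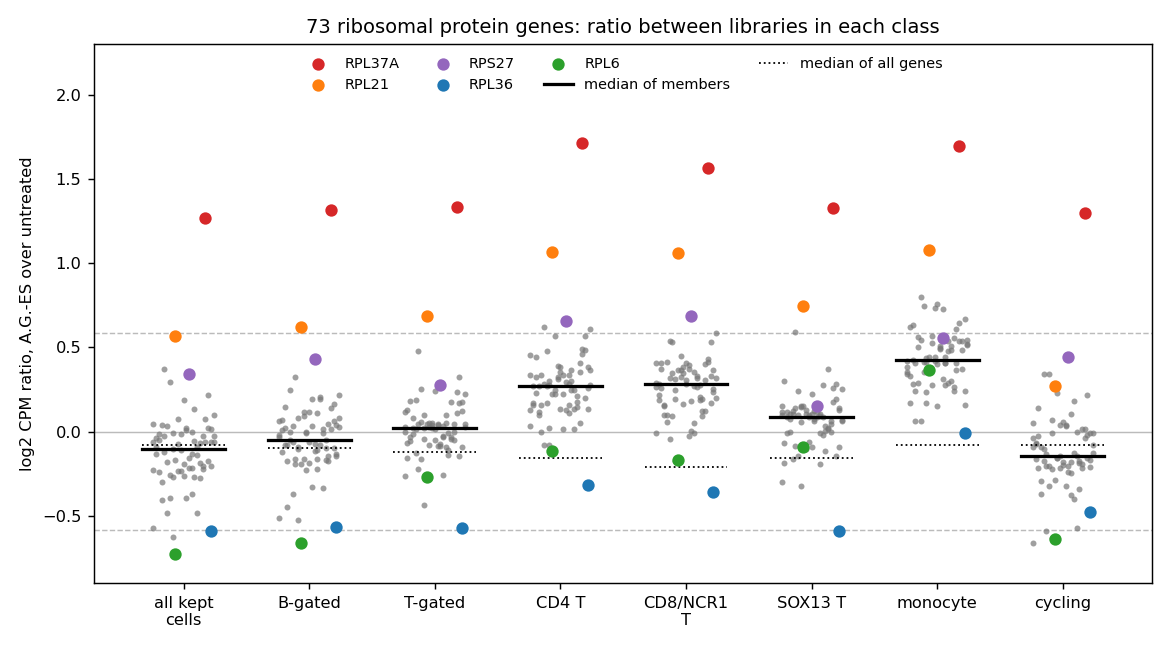
Log2 ratio of CPM, A.G.-ES over untreated, for the 73 measured members in all kept cells and in each class. Each point is a gene, 5 genes that depart from the group are coloured, the black bar is the median of the members, the dotted bar the median of all genes and the dashed lines 1.5-fold. RPL37A is the highest point in every column, and RPL36 lies below the bulk of the members in all of them.

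Departures from the group were few. A member departs where its log2 ratio lies at least 1.5-fold from the median of the members in that class. By this rule 3 members departed in all kept cells and 2 or 3 in each class, out of 73, while 29.1% of all genes departed from their own median in all kept cells. In the classes 24.4% (B), 15.4% (CD4 T), 19.4% (CD8/NCR1 T), 16.5% (SOX13 T), 20.4% (monocyte) and 27.4% (cycling) of all genes did. These shares include genes with far fewer UMIs than most members, and a share among genes matched for counts was not computed. Over the 6 separate classes 5 members departed at least once, and 1 departed in all 6.

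Among the large-subunit proteins, that member was RPL37A, which encodes a small zinc-binding protein. It had 2911 CPM in the A.G.-ES and 1211 CPM in the untreated library, a ratio of 2.40 (2.38 to 2.43). RPL37A was also higher in A.G.-ES cells of each class, from a ratio of 2.46 in cycling cells (2086 against 850 CPM) to 3.28 in CD4 T-gated cells (2780 against 848 CPM). In B-gated cells it had 3196 CPM in the A.G.-ES and 1286 CPM in the untreated library, and in monocyte-gated cells 1242 and 383 CPM. RPL37A made up 1.21% of ribosomal protein UMIs in the A.G.-ES and 0.481% in the untreated library, and its near namesake RPL37, also a zinc-binding protein of the large subunit, had 6370 and 6271 CPM with a log2 ratio of 0.02.

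RPL21, a large-subunit gene in which a human mutation causes hereditary hair loss, departed upwards in 5 of the 6 classes. It had 2493 CPM in the A.G.-ES and 1682 CPM in the untreated library (ratio 1.48). The ratio was 2.09 in both CD4 T-gated (2280 against 1089 CPM) and CD8/NCR1 T-gated cells (2406 against 1154 CPM), 2.11 in monocyte-gated cells and 1.54 in B-gated cells. In cycling cells RPL21 had 1603 CPM in the A.G.-ES and 1329 CPM in the untreated library, a ratio of 1.21, and it did not depart there.

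Other large-subunit genes stood on the low side. RPL36 had 2443 CPM in the A.G.-ES and 3669 CPM in the untreated library (log2 ratio −0.59), and it departed downwards in CD4, CD8/NCR1 and SOX13 T-gated cells. Its ratio lay below 1 in the other 2 lymphoid classes too, and in monocyte-gated cells it was 0.994 with an interval from 0.925 to 1.07, so no difference was detectable there. RPL6 had 1217 CPM in the A.G.-ES and 2009 CPM in the untreated library, the lowest ratio of any member (log2 −0.72). RPL6 departed in B-gated cells, with 1539 against 2433 CPM, but in monocyte-gated cells it was higher, with 803 CPM in A.G.-ES and 624 CPM in untreated cells.

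**Figure D4:**
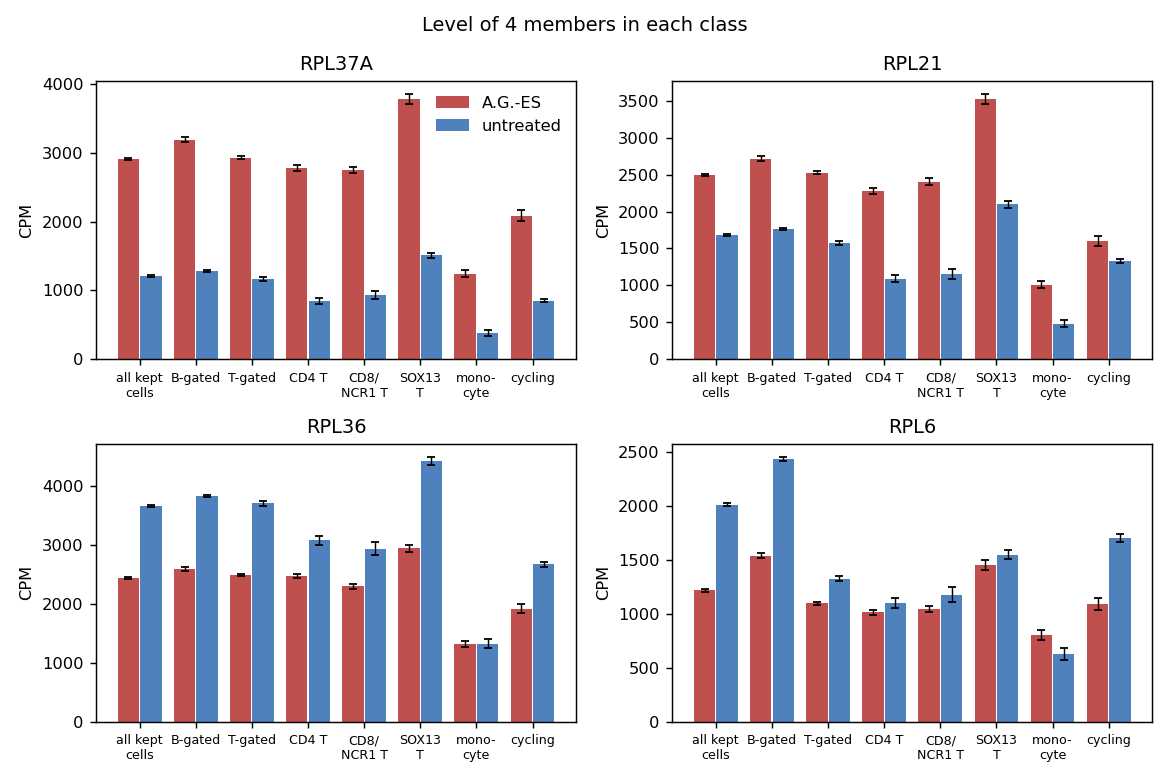
Level of RPL37A, RPL21, RPL36 and RPL6 in CPM (vertical axes, from 0) in all kept cells and in each class, A.G.-ES in red and untreated in blue, with exact Poisson intervals for counting error. RPL37A is higher in the A.G.-ES library in each class, RPL36 is lower except in monocytes, and RPL6 is lower in B-gated and cycling cells and higher in monocytes.

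RPL10A, a protein of the L1 stalk through which spent transfer RNA leaves, had 1361 CPM in the A.G.-ES and 2095 CPM in the untreated library (log2 ratio −0.62). RPL10, which joins the large subunit late in its assembly and is mutated in some human T-cell leukaemias, had 1907 and 2831 CPM (−0.57). RPL13 had 3009 and 4197 CPM (−0.48). For all 3 the gap was smaller in T-cell subsets: in CD4 T-gated cells the log2 ratios were −0.08 for RPL10A, 0.03 for RPL10 and −0.08 for RPL13, and TMM scaling brings all 3 above 0. In cycling cells they were −0.63, −0.66 and −0.59. RPL23A, whose protein lies at the exit of the peptide tunnel where the signal recognition particle docks, was on the higher side in every class, with 6478 CPM in the A.G.-ES and 5286 CPM in the untreated library and log2 ratios from 0.24 in SOX13 T-gated to 0.75 in monocyte-gated cells. RPL31 and RPL32, both among the members with the most UMIs, stayed close, with log2 ratios of 0.07 and −0.09 in all kept cells.

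Small-subunit genes lay slightly below large-subunit genes: the median log2 ratio was −0.17 over RPS and −0.06 over RPL names in all kept cells, and the RPS median was the lower one in each class too. RPS27, a zinc-finger protein of the small subunit, had a higher ratio than the RPS median in all kept cells. It had 5913 CPM in the A.G.-ES and 4659 CPM in the untreated library, a ratio of 1.27. Its ratio was 1.58 in CD4 T-gated cells (5862 against 3718 CPM) and 1.61 in CD8/NCR1 T-gated cells (5834 against 3631 CPM), yet 1.11 in SOX13 T-gated cells (7506 against 6764 CPM). In cycling cells RPS27 departed from the group, with 3613 CPM in the A.G.-ES and 2662 CPM in the untreated library. With marker gates of at least 6 UMIs its log2 ratio there was 0.0054, and it no longer departed.

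RPS6, whose protein is phosphorylated by kinases downstream of mTOR, had 937 CPM in the A.G.-ES and 1311 CPM in the untreated library (log2 ratio −0.48). By class its log2 ratio ran from −0.57 in cycling and −0.34 in B-gated cells to 0.30 in monocyte-gated cells, and in CD4 T-gated cells the levels were 748 and 741 CPM. RPS12 had 5357 CPM in the A.G.-ES and 5645 CPM in the untreated library over all cells, but 4527 against 3052 CPM in CD4 T-gated cells (ratio 1.48). RPS24, a gene mutated in the human blood disorder Diamond-Blackfan anaemia, had 6792 CPM in the A.G.-ES and 6184 CPM in the untreated library (log2 ratio 0.14). RPS19BP1, the regulator caught by name, was counted far less, with 37.5 CPM in the A.G.-ES and 49.6 CPM in the untreated library (0.755, 0.707 to 0.806).

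The 3 genes of the P-stalk, the flexible arm of the large subunit that recruits elongation factors, were all on the higher side. RPLP1 had the most UMIs of any member, with 10357 CPM in the A.G.-ES and 8006 CPM in the untreated library (log2 ratio 0.37). RPLP0 and RPLP2, named after their values were seen, had log2 ratios of 0.22 and 0.19. All 3 had ratios above 1 in each class, from 1.04 for RPLP2 in cycling cells to 1.69 for RPLP2 in monocyte-gated cells.

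The X-linked members did not share a direction in all kept cells. RPL10 was lower, as above, and RPS4X had 1439 CPM in the A.G.-ES and 1699 CPM in the untreated library (log2 ratio −0.24). RPL39 had 3994 and 4039 CPM (−0.02) and RPL36A 1044 and 1021 CPM (0.03). RPL36A differed by class, with 1226 CPM in A.G.-ES and 1198 CPM in untreated B-gated cells, but 932 against 607 CPM in CD4 T-gated cells (ratio 1.54, 1.44 to 1.64). RPS4X had a log2 ratio above 0 in 5 of the 6 classes, with values from −0.22 to 0.64. It had 2000 against 1966 CPM in B-gated and 1243 against 1268 CPM in T-gated cells. The part of the different class mixtures in its lower level over all kept cells was not tested. RPS4X and RPL39 were named after their values were seen. The libraries differed in Y-linked genes as given above, and its part in the X-linked values was not tested.

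Differences between classes were next compared inside each library, where both classes share the droplets and the sequencing. Most members took a larger share of UMIs in B-gated than in T-gated cells. The median log2 ratio, B over T, was 0.23 in the A.G.-ES and 0.30 in the untreated library, with the median of all genes at −0.10 and −0.09. The T-gated reference, used for monocytes below too, was not alike in the libraries. SOX13 T-gated cells were 675 of its 5273 A.G.-ES and 903 of its 1951 untreated cells, and the part of this was not tested. Members at least 1.5-fold higher in B-gated cells numbered 4 in the A.G.-ES library, where 16.5% of all genes were, and 15 in the untreated library, where 20.1% were. RPS19, a Diamond-Blackfan anaemia gene, was among them, with 6953 CPM in B-gated and 4213 CPM in T-gated cells of the A.G.-ES library and 6297 and 3585 CPM in the untreated library. RPLP1 went against the group in both libraries, with 8632 CPM in B-gated and 11948 CPM in T-gated cells of the A.G.-ES library and 7270 and 10504 CPM in the untreated library. RPS19 and the contrasts themselves were chosen after values were seen.

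Nearly every member took a smaller share of UMIs in monocyte-gated than in T-gated cells. The median log2 ratio, monocyte over T, was −0.90 in the A.G.-ES and −1.32 in the untreated library, with all genes at −0.46 and −0.57. Members at least 1.5-fold lower numbered 59 in the A.G.-ES library, against 45.5% of all genes, and 72 in the untreated library, against 49.7%. Among them RPS2 had 1179 CPM in monocyte-gated and 3141 CPM in T-gated cells of the A.G.-ES library, and 708 and 3034 CPM in the untreated library. RPS19BP1 alone was over 1.5-fold higher in monocytes in both libraries, where 20.9% and 19.8% of all genes were, with 60.5 CPM in monocyte-gated and 33.1 CPM in T-gated cells of the A.G.-ES library and 57.8 and 32.6 CPM in the untreated library.

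Among T-cell subsets, SOX13 T-gated cells had a member median 0.45 above CD4 T-gated cells in the A.G.-ES library and 0.63 above in the untreated library. Of the members 12 were at least 1.5-fold higher in the A.G.-ES library, against 6.15% of all genes, and 45 in the untreated library, against 11.7%. CD8/NCR1 T-gated and CD4 T-gated cells hardly differed, with medians of 0.03 in both libraries and 0 members past 1.5-fold in either direction, against 8.34% higher and 10.4% lower of all genes in the A.G.-ES library and 9.45% and 11.1% in the untreated library. Cycling cells lay below B-gated cells, by a median of −0.62 in the A.G.-ES and −0.52 in the untreated library.

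**Figure D5:**
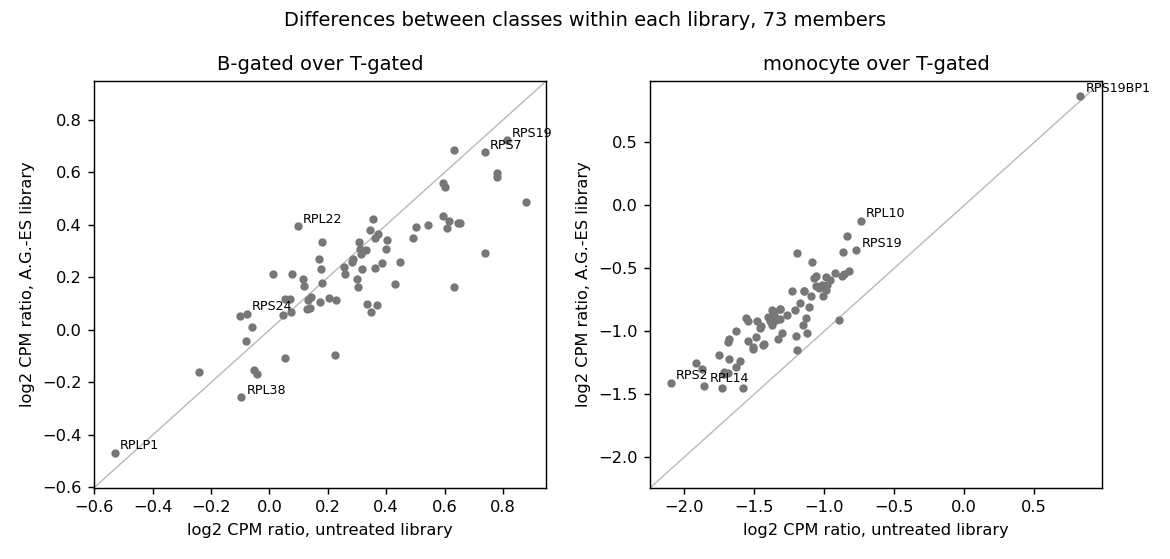
Log2 ratio of CPM between classes within a library for the 73 measured members, the A.G.-ES library on the vertical and the untreated library on the horizontal axis, with B-gated over T-gated cells on the left and monocyte-gated over T-gated cells on the right. The grey line marks equal ratios. RPLP1 is the lowest point on the left, and on the right most members lie above the line because the ratio is less negative in the A.G.-ES library, with RPS19BP1 alone above 0 on both axes.

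Genes that work with the ribosome were compared as separate lists. Of 21 translation factors and TOP partners, 1 was at least 1.5-fold higher and 2 lower in all kept cells, with a median log2 ratio of −0.16, where 13.4% of all genes were that much higher and 16.4% lower. TPT1, a TOP messenger RNA for the translationally controlled tumour protein, was the higher one, with 3448 CPM in the A.G.-ES and 1793 CPM in the untreated library (ratio 1.92). TPT1 was also higher in each class, from a ratio of 1.22 in SOX13 T-gated to 2.26 in cycling cells. The lower ones were NPM1, a nucleolar chaperone, with 283 and 427 CPM, and BTF3, a nascent-chain binding factor, with 47.3 and 72.9 CPM. FAU, which encodes a ribosomal protein fused to a ubiquitin-like domain, had 4517 against 4243 CPM, and RACK1, a scaffold on the small subunit, had 1993 against 2397 CPM. By class the median of this list was 0.40 in monocyte-gated, 0.024 in CD4 T-gated, 0.041 in CD8/NCR1 T-gated and 0.045 in SOX13 T-gated cells. Like the member median, it lay above that of all genes in these 4 classes. In B-gated and cycling cells it was −0.12 and −0.16, below the −0.10 and −0.08 of all genes.

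Ribosome biogenesis genes were mostly lower in the A.G.-ES library over all kept cells. Of 35, 0 were at least 1.5-fold higher and 16 lower in all kept cells, with a median log2 ratio of −0.52, where 13.4% of all genes were higher and 16.4% lower. B-gated cells gave the same counts, 0 and 16 of 35, with a median of −0.54, against 14.9% lower of all genes. In CD4 T-gated cells 0 of 22 were higher and 2 lower, against 5.56% higher and 12.7% lower of all genes. The median there was −0.10, above the −0.16 of all genes, and its sign turns with TMM scaling. Nucleolin (NCL), which had the most UMIs, stood at 649 CPM in the A.G.-ES and 734 CPM in the untreated library, and the snoRNP proteins NOP58 and NOP56 at 143 against 201 CPM and 86.8 against 99.6 CPM. UBTF, a transcription factor of RNA polymerase I, had 84.5 and 114 CPM. The lowest ratio was that of NHP2, a small nucleolar RNA-binding protein named after its value was seen, with 9.45 CPM in the A.G.-ES and 25.4 CPM in the untreated library. Ribosomal protein genes and biogenesis genes thus had different medians in B-gated cells, −0.05 and −0.54.

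Of 59 mitochondrial ribosomal protein genes with enough UMIs, 2 were at least 1.5-fold higher and 14 lower in all kept cells, with a median of −0.32, beside the same 13.4% and 16.4% of all genes. By class the median was −0.26 in B-gated and −0.43 in cycling cells, below that of all genes. In CD4, CD8/NCR1 and SOX13 T-gated cells it was −0.008, −0.049 and −0.014, above the −0.16, −0.21 and −0.16 of all genes. Monocyte-gated cells had 0.21, over only 5 genes with enough UMIs. MRPL17 was higher, with 629 CPM in the A.G.-ES and 279 CPM in the untreated library, and it was higher in each class, with the smallest ratio of 1.25 in CD4 T-gated cells. MRPL44 had 11.8 and 7.48 CPM. MRPL41, MRPL52 and MRPS6 were on the lower side, with 94.6 against 147 CPM, 93.5 against 109 CPM and 58.9 against 94.0 CPM. Of 21 regulators of TOP messenger RNAs and mTOR signalling, 2 were higher and 2 lower, with a median of −0.26, beside the same 13.4% and 16.4%. RICTOR and LARP1, both among those with the most UMIs, stood at 166 against 183 CPM and 81.8 against 114 CPM. The higher ones were the kinases RPS6KA1 (46.7 against 22.4 CPM) and RPS6KA3 (217 against 120 CPM). Within classes RPS6KA3 was lower in B-gated (34.2 against 49.2 CPM), CD4 T-gated (312 against 349 CPM) and monocyte-gated cells (87.5 against 130 CPM). Its ratio was 1.04 in CD8/NCR1 T-gated, 1.53 in SOX13 T-gated and 2.18 in cycling cells. RPS6KA1 was higher in B-gated, SOX13 T-gated and cycling cells, and its intervals included 1 in the other classes. The part of the class mixtures was not tested. The lower regulators over all kept cells were MLST8, a subunit of the mTOR complexes, with 2.52 and 4.87 CPM, and MYC, a transcription factor that drives ribosome production. MYC had 32.2 against 103 CPM in all kept cells and 50.7 against 150 CPM in B-gated cells. In all T-gated cells MYC had 27.7 CPM in the A.G.-ES and 26.3 CPM in the untreated library, but the subsets differed. MYC had 32.7 against 44.8 CPM in CD4 T-gated and 19.3 against 22.3 CPM in CD8/NCR1 T-gated cells (ratio 0.865, 0.537 to 1.45). In SOX13 T-gated cells it was higher, with 21.3 against 12.7 CPM. SOX13 T-gated cells were 675 of 5273 A.G.-ES and 903 of 1951 untreated T-gated cells, and the part of this mixture was not tested.

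The paralogues that the rule leaves out also varied. RPL22L1, the paralogue of RPL22, had 534.5 CPM in the A.G.-ES and 958 CPM in the untreated library (log2 ratio −0.84), while RPL22 itself had a log2 ratio of −0.05. RPL26L1 had 20.5 and 38.5 CPM (−0.91). RPL36AL had 1276 and 1176 CPM (0.12), RPS27L a log2 ratio of −0.27 and RPL7L1 one of −0.17. RPL3L had 1 UMI in each library and RPL10L had 0. By class, the RPL22L1 log2 ratio was −0.63 in B-gated and −0.44 in CD4 T-gated cells, against 0.36 in SOX13 T-gated and 0.26 in monocyte-gated cells, so its direction differed between classes. Ribosomal protein genes have many near-identical copies in mammalian genomes, and the counts of every member named here are uncertain where reads could be shared with copies that carry other names.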

How the data were processed

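The authors deposited raw UMI counts, 1 matrix of genes by barcodes per library. Per the labels' protocols, SeekOne DD 3′ libraries were sequenced on a GeneMind instrument, and dead cells were removed when needed. For aligner, genome build and strand, the settings were not given in the sources used here. A filter of 500 UMIs, 200 genes and 15% mitochondrial UMIs removed 186 A.G.-ES and 158 untreated barcodes. Scrublet (scanpy 1.11.5) ranked doublets, and the top 0.8% per 1000 cells were removed (715 A.G.-ES and 523 untreated cells). Scrublet's own threshold marked 236 and 240 cells.

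A cell was gated to B, T, monocyte or platelet with at least 3 UMIs of that list's markers and at least 80% of its marker UMIs in it, and to cycling with at least 3 UMIs of cycling markers in a B or T cell. T subsets needed a UMI from exactly 1 of the sets CD4, CD8A/CD8B/NCR1 and SOX13/RHEX. Counts were summed per library and class and scaled to CPM (per 1000000 UMIs). Genes with at least 200 UMIs (100 within a class) over both libraries were compared. CPM have exact Poisson, ratios conditional binomial and shares Clopper-Pearson intervals at 95%. TMM factors came from edgeR 4.0.16 in R 4.3.3. PCR and cell sampling add error that these intervals leave out. The ratio script was tested on simulated Poisson counts of 10642 genes in all kept cells, where 95.2% of intervals held the true ratio. Such counts follow the model of the intervals, so this checks the code and not the error in these data.

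Named members were the 10 with the most UMIs, the 5 highest and 5 lowest ratios in all kept cells, the 3 highest and 3 lowest in each class and every member departing in all kept cells or in at least 2 classes. For other lists they were the 4 with the most UMIs and those past 1.5-fold where at most 5 were. A few genes chosen this way are not reported here. Other names were chosen after their values were seen. The members and lists were chosen with earlier results of these data known. Names came from the files, and the RefSeq table of ARS-UI_Ramb_v3.0 gave the chromosomes. A list of snoRNA host genes was not analysed here. No sequence is shown because none was given with the data. Alternatives covered filters, doublets, weighting, thinning, gates, membership, denominator, scaling, count minimum and depth.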

Additional observations from a re-analysis of the deposited data

Results flagged for a closer look

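For 9 of the members named above the ratio of A.G.-ES over untreated pointed in opposite directions in 2 classes, each by more than its counting error. With 1 library per group these differences between classes were not tested. For 7 of them the classes were monocyte-gated and cycling cells, with higher levels in A.G.-ES monocytes and lower levels in A.G.-ES cycling cells. The log2 ratio in monocytes minus that in cycling cells was 1.01 for RPL10, 0.93 for RPL36A, 0.87 for RPS6, 0.85 for RPS4X, 0.80 for RPL10A, 0.72 for RPS12 and 0.66 for RPL22. The log2 ratio in monocytes minus that in B-gated cells was 1.03 for RPL6 and 0.97 for RPS2. Only gaps of at least 1.5-fold are listed, and members that the text does not name are not covered. The member medians of these classes differ in the same direction, at 0.43 in monocyte-gated, −0.05 in B-gated and −0.14 in cycling cells. The monocyte class held 267 A.G.-ES and 173 untreated cells, and the cycling class 164 and 420.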

How the results depend on the processing

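The higher share in CD4 T, CD8/NCR1 T, SOX13 T and monocyte-gated A.G.-ES cells kept its sign under every alternative run, and so did their member medians. The share differences in all kept, B-gated, T-gated and cycling cells changed sign under some settings. In cycling cells they ran from −2.13 to 3.24 points. Values that moved beyond counting error are given next, and the cause was not tested. Except for centring, the share of all genes past 1.5-fold was not recomputed under the alternatives, so the counts of members have no background there. With doublets kept, and likewise with all deposited barcodes, the share differed by 4.31 (CD8/NCR1 T), 1.33 (SOX13 T) and −0.0221 (cycling) points. The member median was −0.057 (cycling). Past 1.5-fold were 2 (cycling). With every cell given the same weight the share differed by −2.27 (all kept cells), −0.716 (B-gated), −0.733 (T-gated), 3.92 (CD4 T), 3.38 (CD8/NCR1 T), 1.04 (SOX13 T), 3.79 (monocyte) and 0.327 (cycling) points. The member median was −0.18 (all kept cells), −0.073 (B-gated), −0.064 (T-gated), 0.62 (monocyte) and −0.029 (cycling). The count past 1.5-fold was 5 (B-gated) and 43 (monocyte). With cells thinned to 1500 UMIs the share differed by −1.61 (all kept cells), −0.244 (B-gated), −0.284 (T-gated), 4.15 (CD4 T), 3.55 (CD8/NCR1 T), 1.13 (SOX13 T), 3.92 (monocyte) and 0.198 (cycling) points. The member median was −0.13 (all kept cells), −0.035 (T-gated), 0.62 (monocyte) and −0.035 (cycling). Members past 1.5-fold were 43 (monocyte). Departing members numbered 6 (cycling). With marker gates of at least 6 UMIs the share differed by 0.0216 (B-gated), 3.94 (CD4 T), 4.57 (CD8/NCR1 T) and −2.13 (cycling) points. Departing members numbered 1 (cycling). With the paralogues added and RPS19BP1 left out the share differed by −1.12 (all kept cells) and −0.108 (B-gated) points. Members past 1.5-fold numbered 5 (B-gated). Departing members numbered 5 (all kept cells), 5 (CD4 T) and 5 (CD8/NCR1 T). Without mitochondrial and haemoglobin genes in the denominator the share differed by −0.888 (all kept cells), 0.0508 (B-gated), 4.31 (CD4 T), 4.51 (CD8/NCR1 T), 1.92 (SOX13 T), 3.67 (monocyte) and −0.745 (cycling) points. The member median was −0.091 (all kept cells). With TMM scaling the member median was −0.077 (all kept cells), 0.45 (CD4 T), 0.54 (CD8/NCR1 T) and 0.19 (SOX13 T). Past 1.5-fold were 13 (CD4 T), 27 (CD8/NCR1 T) and 27 (monocyte). With ratios centred on all genes the member median was −0.022 (all kept cells), 0.051 (B-gated), 0.43 (CD4 T), 0.49 (CD8/NCR1 T), 0.24 (SOX13 T) and −0.062 (cycling). The count past 1.5-fold was 13 (CD4 T), 17 (CD8/NCR1 T), 27 (monocyte) and 1 (cycling). Of all genes 15.4%, 19.4%, 20.4% and 27.4% lay that far from their median in these classes. Among cells of 4000 to 8000 UMIs, a setting added after the data were seen, the share differed by 0.366 (all kept cells), 0.101 (B-gated), 4.42 (CD4 T), 6.74 (CD8/NCR1 T), 2.37 (SOX13 T), 2.08 (monocyte) and 3.24 (cycling) points. The member median was −0.011 (all kept cells), −0.016 (B-gated), 0.42 (CD8/NCR1 T) and 0.22 (cycling). Members past 1.5-fold were 2 (all kept cells), 8 (CD8/NCR1 T) and 3 (cycling). RPL37A stayed between 1.10 and 1.89 on the log2 scale over all classes and alternatives, and RPL21 between 0.50 and 1.32 wherever it departed. RPL36 in its 3 T-cell subsets stayed between −0.61 and −0.096, and RPL6 in all kept and B-gated cells between −0.72 and −0.45. RPS27 in cycling cells was 0.0054 with marker gates of at least 6 UMIs. Of 557 recomputed values 146 moved and 13 changed sign, where moved means by more than the counting error. A replicate that was left out could not be tried with 1 library per group. No paired analysis was possible because each group has 1 library. RNA free in the droplets was not removed.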

Other observations

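CCR7, the lymph node homing receptor of naive and central memory T cells, was used to look at the ribosomal protein share inside the CD4 T-gated class. After thinning every cell to 1500 UMIs, which left out 32 A.G.-ES and 6 untreated cells, 37 of 1409 A.G.-ES CD4 T-gated cells (2.63%, 1.86 to 3.60%) and 7 of 350 untreated ones (2.00%, 0.808 to 4.08%) had a CCR7 UMI. Without thinning these shares were 7.70% and 5.06%. In monocyte-gated cells, which should lack the gene, 0 of 254 A.G.-ES and 0 of 154 untreated cells had one after thinning, with exact upper limits of 1.44% and 2.37%. Without thinning the monocyte shares were 0.375% and 1.73%. The untreated CD4 T-gated share of 2.00% lies below that upper limit for untreated monocytes, so it cannot be told from background. The ribosomal protein share was 25.1% in cells with and 21.7% in cells without a CCR7 UMI in the A.G.-ES library, and 15.2% and 17.7% in the untreated library. The untreated value rests on 7 cells.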
